A study of Mus musculus with 6 samples.

Results

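AP-1 is the group of basic leucine zipper (bZIP) transcription factors built from Fos and Jun proteins, and its genes were described here in cultured mouse lung endothelial cells (LECs) with and without Atgl. The members were taken by gene symbol as the 4 Fos genes (Fos, Fosb, Fosl1 and Fosl2), the 3 Jun genes (Jun, Junb and Jund) and a pair of small Maf genes (Maff and Mafk), which makes 9 of the 20409 gene symbols in the table. All 9 passed the filter on low values, a mean over the libraries of at least 1 CPM, the unit of counts scaled by the authors to the size of each library.

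Expression was measured by RNA-Seq in 6 libraries, 3 of Atgl ECKO LECs and 3 of control LECs. The Atgl ECKO cells came from mice in which Cdh5-Cre, a Cre recombinase driven by an endothelial promoter, deleted floxed Atgl (gene symbol Pnpla2), the gene of adipose triglyceride lipase, which starts the breakdown of triglycerides stored in lipid droplets. The control cells carried the floxed gene (ATGL f/f) and no such deletion. Cells of both genotypes were selected for CD31, immortalized by a retrovirus with middle T antigen, grown in EGM-2 medium with serum, and left untreated, and the methods tie no age to the mice whose lungs gave these cells. Middle T antigen, a viral protein that switches on Src and MAP kinase signalling, was thus present in both genotypes. Nothing in the labels says that libraries of a genotype came from separate mice or cultures, and the p-values therefore describe the spread among these libraries alone, which may be technical. Whether the genotype or another difference between the cell lines moved with a value cannot be told apart.

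Fos proteins pair with Jun proteins through their leucine zippers, whereas Jun proteins can also pair with each other, and the pairs bind the TPA response element (TRE) or, less tightly, the cAMP response element (CRE). Fos, Fosb, Jun and Junb are immediate early genes that serum and MAP kinases switch on quickly and for a short time, while Fosl1 (FRA-1) and Fosl2 (FRA-2) proteins last longer, lack the strong activating region of Fos, and Fosl1 is itself a target of AP-1. Small Maf proteins have no activating region of their own and pair with Nrf2, Bach or Fos proteins. In endothelium, AP-1 is known to take part in switching on tissue factor, adhesion molecules and proteases.

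AP-1-type motifs were looked for in the 250 bases before the RefSeq start sites (mouse build GRCm38.p6), because the Jun and Fos genes are known to be controlled in part by such sites. Windows were found for 8 of the 9 members (all but Fosl1), and Maff had 3 windows for 3 start sites. The 8 members thus had 10 windows, and a member was counted when any of its windows held the motif. The percentage beside each count is of single windows, so the measures are not alike, above all for Maff. The Jund window ended at base 70697738 of chromosome 8, well upstream of the GENCODE gene start at 70698949. The stretch just before that Jund start was therefore not searched, although Jund is counted among the 8 members. The TRE, searched as TGANTCA on both strands, was in 0 of the 8 members and in 6.75% of all 32851 windows. The full CRE, TGACGTCA, was in Maff and in 1.55% of all windows. The variant TGACATCA was in Jun and Maff and in 2.93% of windows. The CRE core TGACG, which the full CRE contains, was in 5 of 8 members (Fos, Fosb, Junb, Maff and Mafk) and in 17.8% of windows. The CArG box, the site of serum response factor, was in 0 of 8 members and in 1.47% of windows. Sites beyond these 250 bases were not searched, so a count of 0 does not mean that a gene lacks the site. The 120 bases before the start are shown for 5 members with a motif near the start, 5′ to 3′ on the gene's strand, with the motif in capitals (TGACG in Fos, Fosb and Junb, TGACATCA in Jun, TGACGTCA in Maff).
Fos, chr12:85473770-85473889, plus strand: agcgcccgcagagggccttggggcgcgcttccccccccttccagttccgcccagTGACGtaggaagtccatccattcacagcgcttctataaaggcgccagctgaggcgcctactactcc
Fosb, chr7:19310046-19310165, minus strand: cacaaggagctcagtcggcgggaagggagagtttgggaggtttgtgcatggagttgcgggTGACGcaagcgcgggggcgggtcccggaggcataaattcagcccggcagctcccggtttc
Jun, chr4:95052223-95052342, minus strand: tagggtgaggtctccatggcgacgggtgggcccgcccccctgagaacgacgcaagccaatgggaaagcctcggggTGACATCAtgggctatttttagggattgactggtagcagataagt
Junb, chr8:84978749-84978868, minus strand: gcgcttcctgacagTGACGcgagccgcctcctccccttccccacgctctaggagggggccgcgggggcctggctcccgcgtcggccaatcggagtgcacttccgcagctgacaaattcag
Maff, chr15:79347400-79347519, plus strand: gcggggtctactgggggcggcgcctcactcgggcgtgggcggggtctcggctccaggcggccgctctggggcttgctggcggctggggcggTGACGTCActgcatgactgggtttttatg
In Fos the core lay 66 to 62 bases before the start, with a further copy upstream of the stretch shown. It lay 60 to 56 bases before the start in Fosb and 106 to 102 in Junb. The Jun variant lay 45 to 38 bases before the start, and the Maff CRE 29 to 22. A match of letters is a description of these windows and says nothing of what bound there in these cells.

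Of the 9 members, 7 were higher in Atgl ECKO LECs (Fosb, Fosl1, Jun, Junb, Jund, Maff and Mafk), Fos was called lower by a small margin, and Fosl2 did not pass the test. Fosl1 stood out from the others in size, at 2.11 times the control level, while the log2 fold changes of the other 6 higher members lay between 0.12 and 0.43. The test was limma on log2(CPM + 1) over 12837 genes with Benjamini-Hochberg adjusted p under 0.05, and a log2 fold change is Atgl ECKO minus control on that scale, which understates the change of genes with few CPM. Under the same test 70.5% of all genes were called, 34.2% as higher and 36.2% as lower, so that a call by itself was common, and the median log2 fold change was 0.28 over the members against −0.01 over all genes. All 3 Atgl ECKO libraries lay above all 3 control libraries for the 7 higher members, as they did for 35.3% of all genes (73.1% of all genes had no overlap in either direction), and the groups overlapped for Fos and Fosl2. Only Fosl1 of the 9 passed a log2 fold change of 1, as did 2.23% of all genes in the higher and 2.72% in the lower direction with an unadjusted p under 0.05.

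**Figure D1:**
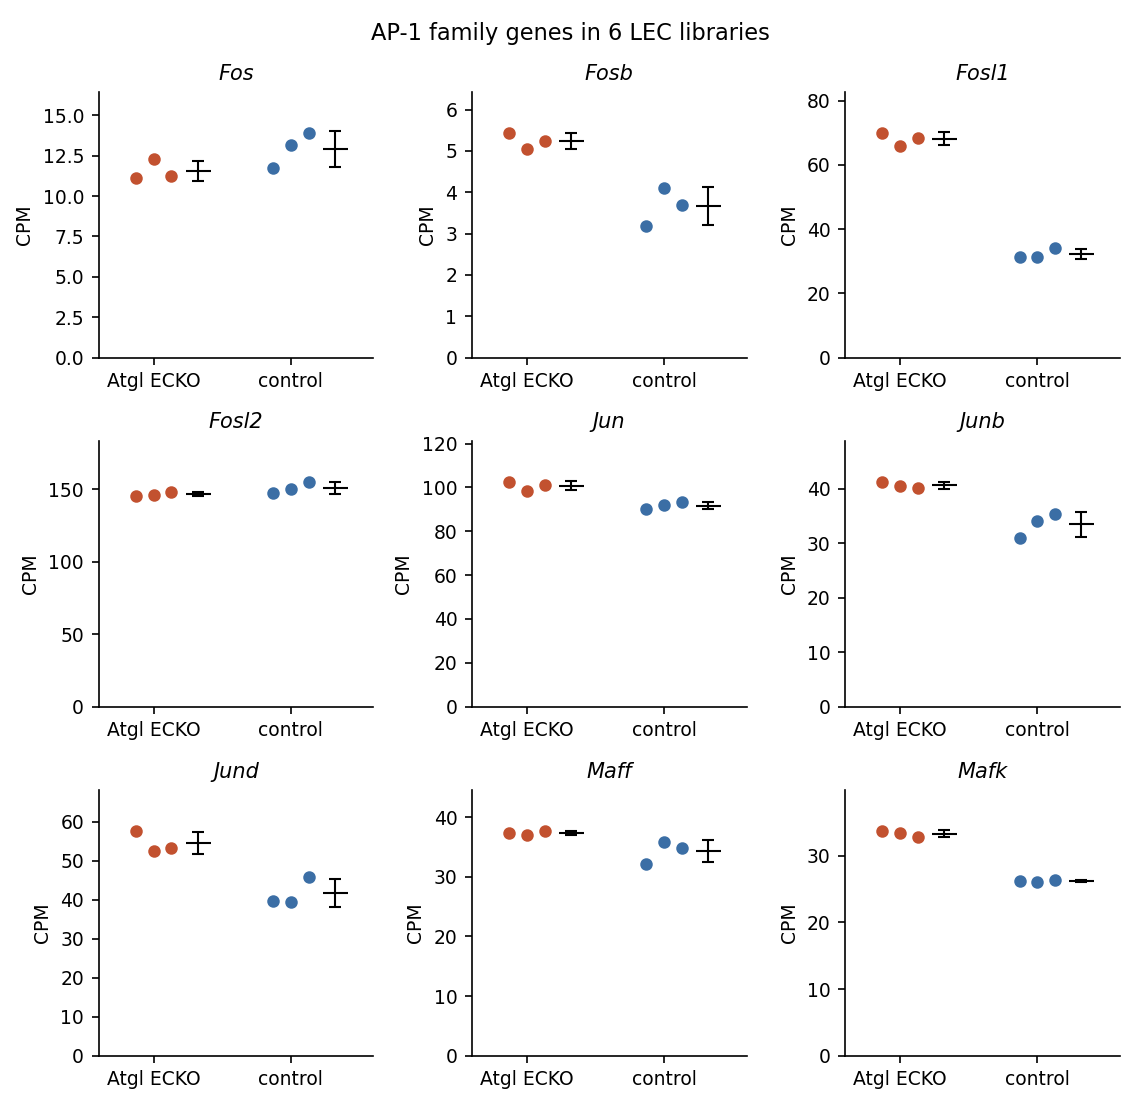
CPM of the 9 AP-1 genes, 1 panel each with its own axis from 0, with points for the 3 Atgl ECKO (left) and 3 control libraries (right) and a bar for the mean with its SD. The Fosl1 points lie at 65.9 to 70.1 CPM in Atgl ECKO and 31.3 to 34.2 CPM in control LECs, while those of Fos and Fosl2 overlap between genotypes.

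As a check of the labels, Pnpla2, the deleted gene, had 9.97, 9.11 and 9.13 CPM in Atgl ECKO LECs and 27.6, 26.3 and 30.1 CPM in control LECs, a log2 fold change of −1.48. The 13 endothelial markers, Pecam1 and Cdh5 among them, summed to 5879 to 6277 CPM in Atgl ECKO and 5643 to 5909 CPM in control libraries, with 5 higher, 4 lower and 4 not past the test. Of the markers of other cells, the 5 listed for leukocytes summed to 63.9 to 75.4 CPM in Atgl ECKO and 20.9 to 23.6 CPM in control libraries with 1 of 2 tested higher (Cd68), and the 7 of lung epithelium to 42.3 to 44.7 CPM in Atgl ECKO and 18.0 to 19.1 CPM in control libraries with 3 of 3 tested higher, while Epcam, which defines epithelium, stayed at or under 0.0649 CPM and Lyz2, a gene of macrophages, at or under 0.583 CPM. The 10 of fibroblasts and smooth muscle summed to 364 to 435 CPM in Atgl ECKO and 312 to 354 CPM in control libraries (2 higher and 1 lower of 4 tested) and the 4 of lymphatic endothelium to 1839 to 2000 CPM in Atgl ECKO and 1936 to 2081 CPM in control libraries (1 lower of 2 tested), with Prox1, which defines lymphatic cells, at or under 0.054 CPM. The part of other cells in the AP-1 values was not tested, and in bulk RNA fewer cells of a type and less RNA per cell cannot be told apart. Medians of log2 fold change differed by chromosome, between −0.23 and 0.45 over the chromosomes other than Y. The 4 genes of chromosome Y had a median of −4.43, far lower in Atgl ECKO LECs, although the study's methods name only male mice. Whether the cell lines differ in sex or have kept chromosome Y was not tested, and such a difference cannot be told apart from the genotype. Libraries correlated at 0.998 or more within and 0.964 or less between genotypes over tested genes. By the step between low values, 1 CPM stood for 55.6 to 69.0 reads.

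Among the Fos genes, Fosl1 had the largest difference. Fosl1, which encodes FRA-1, had 70.1, 65.9 and 68.6 CPM in Atgl ECKO libraries 1 to 3 and 31.4, 31.3 and 34.2 CPM in control libraries 1 to 3. Every Atgl ECKO library was above every control library with a wide gap. The means were 68.2 ± 2.11 CPM and 32.3 ± 1.61 CPM (SD, n = 3 each), and the log2 fold change was 1.06 (SE 0.04, 95% confidence interval 0.97 to 1.14, limma adjusted p = 2.54e-12). A larger log2 fold change was seen in 2.01% of the tested genes. Fosl1 is among the inflammatory genes that the study displayed from these same libraries, so its direction is not independent evidence.

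Chromosome 19, on which Fosl1 lies, had a median log2 fold change of 0.41, and 17 of its 437 tested genes exceeded Fosl1. The 5 nearest tested genes on each side of Fosl1, which were looked at after its values were seen, were all higher in Atgl ECKO LECs, with log2 fold changes of 0.21 (Mus81) to 0.83 (Fibp) and a median of 0.59. With the chromosome medians taken off, the log2 fold change of Fosl1 was 0.65 and remained past the test. Fosl1 also overlaps Ccdc85b on the opposite strand, which had 19.5 CPM in Atgl ECKO and 12.2 CPM in control LECs, and the sources used here do not say whether the counting used strand. The part of the chromosome and of the overlapping gene in the Fosl1 difference was not tested.

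Fosb encodes a Fos protein with a strong activating region, or without it in its shorter form, and the gene-level values do not part these forms. It had the lowest CPM of the family, with 5.45, 5.06 and 5.23 CPM in Atgl ECKO and 3.19, 4.10 and 3.70 CPM in control LECs. The groups did not overlap, with control library 2 the nearest to the Atgl ECKO libraries. The log2 fold change was 0.43 (SE 0.08, interval 0.27 to 0.59, limma adjusted p = 0.000115), resting on about 220 to 344 reads a library, and Fosb is not tested at all under a filter at a mean of 5 CPM.

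Fos, the prototype of the family, had 11.1, 12.3 and 11.3 CPM in Atgl ECKO and 11.7, 13.1 and 13.9 CPM in control LECs. Atgl ECKO library 2 lay above control library 1, so the groups overlapped. The log2 fold change was −0.15 (SE 0.06, interval −0.28 to −0.02, limma adjusted p = 0.0443), a call that held under 8 of 16 alternatives. It was lost without Atgl ECKO library 1 (adjusted p = 0.120), Atgl ECKO library 3 (0.121), control library 2 (0.1001) or control library 3 (0.196). Fos lies on chromosome 12, where the median log2 fold change was 0.36, and 9 of its 10 nearest tested genes had a larger log2 fold change than Fos. With the chromosome medians taken off, Fos had a log2 fold change of −0.51 (limma adjusted p = 4.31e-06).

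Fosl2, which encodes FRA-2, had the highest CPM of the 9, with 146, 146 and 148 CPM in Atgl ECKO and 148, 150.1 and 155 CPM in control LECs. The groups overlapped, and the log2 fold change of −0.04 did not pass the test (SE 0.03, interval −0.11 to 0.02, limma adjusted p = 0.226). The interval covers differences of at most 0.11 on the log2 scale, and the sign of the estimate turned to 0.05 with the chromosome medians taken off, again not past the test.

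All 3 Jun genes were higher in Atgl ECKO LECs, in steps from Jun to Junb to Jund. This order did not hold with the chromosome medians taken off, where Junb was the lowest (Jun 0.24, Junb 0.17 and Jund 0.27). Jun, the main partner of Fos proteins and the strongest activator among the Jun proteins, had 102.7, 98.4 and 101.3 CPM in Atgl ECKO and 90.0, 91.9 and 93.4 CPM in control LECs. Its groups did not overlap, and its log2 fold change of 0.13 was the smallest of the 3 (SE 0.03, interval 0.07 to 0.20, limma adjusted p = 0.00115). Of the 10 genes nearest to Jun, 7 were lower, with a median log2 fold change of −0.23, so Jun moved in the other direction from most of its neighbours. Jun had a log2 fold change of 0.24 with the chromosome medians taken off. Junos, on the opposite strand of Jun, had 0.346 CPM in Atgl ECKO and 0.375 CPM in control LECs.

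Junb, a weaker activator that can hold Jun in check, had 41.4, 40.6 and 40.2 CPM in Atgl ECKO and 30.9, 34.1 and 35.4 CPM in control LECs. The Atgl ECKO libraries lay close together and above all control libraries, with a log2 fold change of 0.28 (SE 0.05, interval 0.18 to 0.37, limma adjusted p = 5.62e-05), or 0.17 with the chromosome medians taken off. Junb overlaps Prdx2 on the opposite strand, an abundant peroxiredoxin gene with 122 CPM in Atgl ECKO and 118 CPM in control LECs, so a share of its reads is uncertain without strand.

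Jund, which is expressed steadily in most resting cells and restrains growth in many of them, had 57.8, 52.4 and 53.3 CPM in Atgl ECKO and 39.8, 39.3 and 45.9 CPM in control LECs. Control library 3 was the nearest to the Atgl ECKO libraries, without overlap. The log2 fold change was 0.38 (SE 0.05, interval 0.27 to 0.49, limma adjusted p = 1.02e-05), the largest of the Jun genes. Junb and Jund both lie on chromosome 8, where the median log2 fold change was 0.11. Jund overlaps Gm11175 on the opposite strand, which was not analysed here, so its reads are uncertain without strand as well.

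Of the small Maf genes, Mafk differed by more than Maff. Mafk, whose protein pairs with Nrf2 and with Bach1, had 33.8, 33.4 and 32.8 CPM in Atgl ECKO and 26.17, 26.04 and 26.33 CPM in control LECs. Libraries of a genotype were close together and far from those of the other, with a log2 fold change of 0.34 (SE 0.04, interval 0.26 to 0.41, limma adjusted p = 6.90e-07). Tmem184a, on the opposite strand of Mafk, was at 0.0317 CPM in Atgl ECKO and 0.0402 CPM in control LECs. Maff, a small Maf gene induced by stress and inflammatory signals, had 37.4, 37.0 and 37.7 CPM in Atgl ECKO and 32.2, 35.9 and 34.9 CPM in control LECs. Its groups did not overlap, but control library 2 was close to the lowest Atgl ECKO library. The log2 fold change was 0.12 (SE 0.04, interval 0.03 to 0.21, limma adjusted p = 0.0173), and the call was lost without control library 1 (0.08, adjusted p = 0.118), without variance moderation (adjusted p = 0.0858) and with the chromosome medians taken off (0.04, adjusted p = 0.402).

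**Figure D2:**
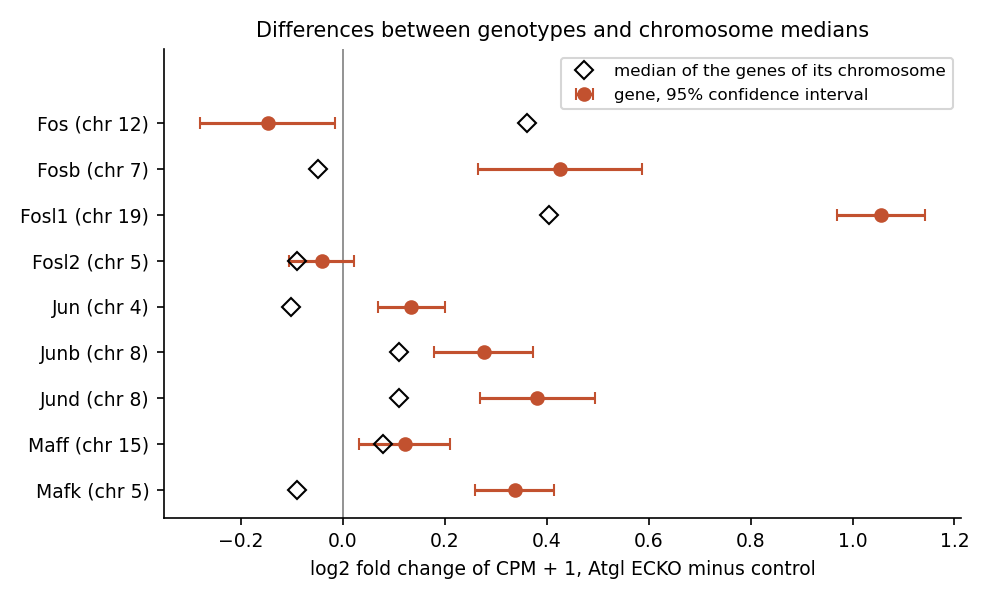
Log2 fold change of CPM + 1 (Atgl ECKO minus control, horizontal axis) of the 9 AP-1 genes with 95% confidence intervals, beside the median of the genes on the same chromosome that averaged 5 CPM or more (open diamonds). Fosl1 lies at 1.06 with its chromosome at 0.41, and Fos at −0.15 with its chromosome at 0.36.

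Libraries of a genotype often held the same rank from member to member. Control library 3 was the highest of its genotype for 7 of the 9 members and control library 1 the lowest for 6. Atgl ECKO library 1 was the highest of its genotype for 6 and Atgl ECKO library 2 the lowest for 5. Pairs of members differed in how far they deviated together from the genotype means. The Pearson r was 0.96 for Fosl1 with Jund and 0.95 for Fosb with Maff. It was 0.16 for Fos with Jun, −0.07 for Fosl2 with Mafk and −0.17 for Maff with Mafk. Some members therefore share part of their spread through the libraries, and the calls cannot be taken as independent of each other.

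To set the genes beside each other, CPM were divided by the length of annotated exon in kilobases (GENCODE M21), with the limit that the gene model used by the authors may have other lengths. The chromosome medians were not taken off these values, and the order without them was not worked out. The median log2 fold change was 0.41 for chromosome 19 (Fosl1), 0.11 for chromosome 8 (Jund) and −0.10 for chromosome 4 (Jun). The lead of Fosl1 in Atgl ECKO LECs therefore holds for the unadjusted values only. On this scale Fosl1 led the family in Atgl ECKO LECs with 36.6 ± 1.13 CPM per kb, followed by Jund with 32.7 ± 1.72 and Jun with 31.6 ± 0.687 (SD, n = 3 each). In control LECs Jun led with 28.8 ± 0.531 CPM per kb, then came Jund with 24.99 ± 2.19, Fosl2 with 23.1 ± 0.614 and Junb with 18.5 ± 1.28, and Fosl1 was only the fifth with 17.3 ± 0.862. Neighbours in the order that overlapped between libraries were Jund and Jun, and Junb and Fosl2, in Atgl ECKO LECs, and Jund and Fosl2, and Junb and Fosl1, in control LECs. The last 4 places were the same in both genotypes, with Maff (16.3 and 14.95 CPM per kb in Atgl ECKO and control LECs), Mafk (9.21 and 7.23), Fos (5.48 and 6.13) and Fosb (1.39 and 0.968).

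The make-up of the Fos family differed between the genotypes by larger shifts in share than that of the Jun family. The shares of both families rest on values from which the chromosome medians were not taken off. Fosl1 made up 55.5 ± 1.01% of the summed CPM per kb of the 4 Fos genes in Atgl ECKO LECs, against 36.4 ± 0.645% in control LECs. Fosl2 made up 34.1 ± 0.562% in Atgl ECKO and 48.6 ± 0.716% in control LECs, so the leading Fos gene was a different one in each genotype. Fos itself held 8.32% in Atgl ECKO and 12.9% in control LECs, and Fosb 2.10% in Atgl ECKO and 2.04% in control LECs. The sum of the Fos family was 65.9 ± 0.858 CPM per kb in Atgl ECKO and 47.5 ± 1.97 in control LECs (SD, n = 3 each).

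For the Jun genes the shares stayed closer. Jund held 37.6% of the summed CPM per kb in Atgl ECKO and 34.5% in control LECs, Jun 36.4% in Atgl ECKO and 39.9% in control LECs, and Junb 25.9% in Atgl ECKO and 25.6% in control LECs. The sum was 86.8 ± 2.60 CPM per kb in Atgl ECKO and 72.3 ± 3.70 in control LECs. Mafk made up 36.1% of the summed small Maf values in Atgl ECKO and 32.6% in control LECs.

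**Figure D3:**
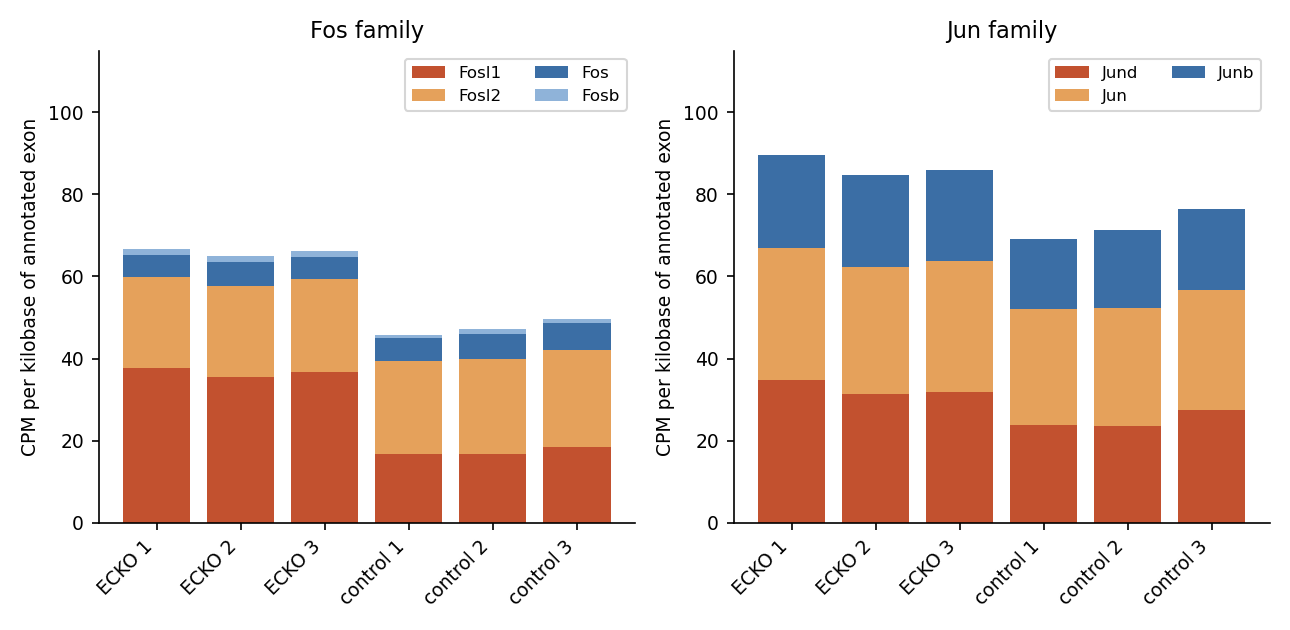
Stacked CPM per kilobase of annotated exon in each library, 3 Atgl ECKO on the left and 3 control on the right of each panel, for the Fos family (left panel) and the Jun family (right panel). Fosl1 is the tallest piece of the Fos bars in Atgl ECKO and Fosl2 in control libraries.

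Ratios between members of a family were taken inside each library, where the scaling of the library cancels nearly in full. Differences between chromosomes do not cancel in them. Of the 10 pairs, 8 did not overlap between genotypes, which gave p = 0.1 in the exact two-sided permutation test, the smallest that 3 against 3 allows (0.125 after Benjamini-Hochberg adjustment over the 10 pairs), so none could pass 0.05. The widest was the Fos to Fosl1 ratio, whose mean log2 value was lower by a difference of −1.20 in Atgl ECKO than in control LECs. The Fosl1 to Fosl2 ratio was 1.10 higher on the log2 scale in Atgl ECKO LECs and the Fosb to Fosl2 ratio 0.47 higher. Differences of −0.63 for Fosb to Fosl1 and −0.57 for Fos to Fosb came next. Among the Jun genes they were −0.25 for Jun to Jund and −0.14 for Jun to Junb, and −0.22 for Maff to Mafk. The pairs that overlapped were Fos with Fosl2 (−0.11) and Junb with Jund (−0.11), each at an exact p of 0.2. With the chromosome medians taken off, the log2 fold changes behind these pairs were −0.51 (Fos), 0.47 (Fosb), 0.65 (Fosl1) and 0.05 (Fosl2). They were 0.24 (Jun), 0.17 (Junb), 0.27 (Jund), 0.04 (Maff) and 0.43 (Mafk). Fosl1 then lay closer to Fosb and Fosl2, Jun lay close to Jund, and Jun was above Junb. Other pairs lay further apart, with Fos further below Fosb and Fosl2, and Maff further below Mafk.

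Genes that followed Fos, Fosl1 and Jun within the genotypes were taken as the 3 with the highest Pearson r of deviations from the genotype mean over the 6 libraries, out of 9094 genes that averaged 10 CPM or more. They were Myl6 (r = 0.997), Src (0.996) and Rgs2 (0.988) for Fos, Oxnad1 (0.998), Vangl2 (0.996) and Tbl3 (0.993) for Fosl1, and Chrac1 (0.995), Fastk (0.993) and Rsph3b (0.991) for Jun. These values describe the same 6 libraries, whose depth they share, and have no test. Picked as the highest of 9094 over so few libraries, such high r values can arise without any link between the genes.

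The other bZIP genes supply further partners of Fos, Jun and small Maf proteins. Of 16 tested, 2 were higher (12.5%, against 34.2% of all genes), 9 lower (56.2%, against 36.2%) and 5 not past the test, with a median log2 fold change of −0.25. Taking off the chromosome medians gave 4 higher and 10 lower. Nfe2l2, which encodes Nrf2, the partner of small Maf proteins in the response to oxidative stress, had 189.4, 187 and 181 CPM in Atgl ECKO and 316, 312 and 321 CPM in control LECs, a log2 fold change of −0.77 (limma adjusted p = 2.69e-12). All 3 control libraries were above all 3 Atgl ECKO libraries. Batf2 (−0.71), Nfe2 (−0.46) and Maf (−0.45) were lower as well, at means under 2 CPM in either genotype, where the size of the log2 fold change depends on the pseudocount (−1.34, −0.80 and −0.75 at a pseudocount of 0.1 CPM).

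Jdp2, a Jun partner that represses AP-1 sites, was higher with 42.06 CPM in Atgl ECKO and 29.02 CPM in control LECs, a log2 fold change of 0.52 (limma adjusted p = 7.64e-09) that became 0.16 with the chromosome medians taken off, still past the test. It is among the 10 tested genes nearest to Fos on chromosome 12, where Fos had a log2 fold change of −0.15. Mafa and Nfe2l3 were under the filter, at or under 0.146 CPM in every library.

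The MAP kinase pathway, through which serum and middle T antigen act on the Fos and Jun genes, had shares near those of all genes. Of 28 tested genes 12 were higher (42.9%, against 34.2% of all genes), 8 lower (28.6%, against 36.2%) and 8 not past the test, with a median log2 fold change of 0.05. Map2k6, a kinase that activates p38, was lower, with 5.74 ± 0.214 CPM in Atgl ECKO and 10.1 ± 0.960 CPM in control LECs and a log2 fold change of −0.72 (limma adjusted p = 1.03e-07). Rps6ka1, an ERK-driven kinase (RSK1), had a log2 fold change of 0.68 and Mapk12, p38 gamma, of 0.55. Map3k5 (ASK1) and Nras were lower at −0.44 and −0.30, the Map3k5 value being −0.71 at a pseudocount of 0.1 CPM and −0.24 at 3 CPM. Mapk13 was under the filter.

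Factors known to act on the Fos and Jun promoters comprised 11 tested genes, of which 2 were higher (18.2%, against 34.2% of all genes), 5 lower (45.5%, against 36.2%) and 4 not past the test, with a median of −0.08. Stat3, which acts on the Fos promoter after cytokines, had a log2 fold change of −0.39, Mef2a, which acts on the Jun promoter, of −0.29, and Creb1, which binds the CRE and is also counted among the bZIP genes, of −0.25. Elk1, a partner of serum response factor, was at −0.17, and was not called with the chromosome medians taken off (−0.10, limma adjusted p = 0.0829). Srf itself and its coactivator Mkl1 were higher by 0.16 and 0.23, the Mkl1 value being 0.15 with the chromosome medians taken off.

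Of the dual specificity phosphatases, Sprouty and Spred genes, which damp MAP kinases and are often induced by them, 7 were higher (46.7%, against 34.2% of all genes), 6 lower (40%, against 36.2%) and 2 not past the test of 15, with a median of −0.01. Taking off the chromosome medians gave 6 higher and 4 lower. Dusp5, an ERK phosphatase of the nucleus, had 83.0, 86.4 and 82.6 CPM in Atgl ECKO and 39.8, 40.2 and 45.5 CPM in control LECs. The gap was wide, with a log2 fold change of 0.99 (limma adjusted p = 2.24e-11), on chromosome 19 as Fosl1 is, and 0.59 with the chromosome medians taken off. Dusp10 (0.94, or 0.63 at a pseudocount of 3 CPM), Dusp7 (0.62), Dusp8 (0.47) and Dusp1 (0.46) were higher too. Dusp6, an ERK phosphatase of the cytoplasm, was lower with 140.9 ± 8.63 CPM in Atgl ECKO and 188 ± 4.92 CPM in control LECs (−0.41).

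The remaining immediate early genes, which share the quick response to serum with Fos, were mixed, with 8 higher (38.1%, against 34.2% of all genes), 6 lower (28.6%, against 36.2%) and 7 not past the test of 21 and a median of 0.04. Egr1, a zinc finger factor that is switched on through the same kinases as Fos, had 34.7, 35.1 and 36.7 CPM in Atgl ECKO and 59.2, 59.2 and 62.7 CPM in control LECs. It was lower by a wide margin in all Atgl ECKO libraries (log2 fold change −0.75, limma adjusted p = 6.60e-11). Arc (−0.66) and Nr4a3 (−0.53, or −0.80 at a pseudocount of 0.1 CPM) were lower as well. Klf4, a factor that holds back endothelial inflammation, had 48.4 ± 1.35 CPM in Atgl ECKO and 25.9 ± 0.714 CPM in control LECs, a log2 fold change of 0.88. Rhob, a small GTPase, was higher by 0.75, or by 0.39 with the chromosome medians taken off, and Gadd45b, a stress sensor, by 0.68. Egr3 was under the filter, at no more than 1.16 CPM. Heat shock genes, which handling of cells can induce, summed to 2897 to 2980 CPM in Atgl ECKO and 2657 to 2725 CPM in control libraries, and their part in the immediate early values was not tested.

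Known targets of AP-1 had 15 higher (55.6%, against 34.2% of all genes), 7 lower (25.9%, against 36.2%) and 5 not past the test of 27 tested, and a median log2 fold change of 0.19 (mean 0.10) against −0.01 over all genes. The summed level of the 32 listed genes was 6481 to 6750 CPM in Atgl ECKO and 4883 to 5162 CPM in control libraries. Abundant genes weigh most in this sum. Ccnd1, picked after its values were seen, had a mean of 2005 CPM in Atgl ECKO and 1439 CPM in control LECs. Ptgs2, which encodes cyclooxygenase-2, had 277, 334 and 334 CPM in Atgl ECKO and 61.4, 72.1 and 70.2 CPM in control LECs. Every Atgl ECKO library was several times above every control library, and the log2 fold change was 2.20 (SE 0.07, limma adjusted p = 1.28e-13). F3, tissue factor, the starter of clotting, had 11.01 ± 1.87 CPM in Atgl ECKO and 3.41 ± 0.256 CPM in control LECs, a log2 fold change of 1.44. Mmp10, a matrix protease, had 2.12, 2.29 and 2.43 CPM in Atgl ECKO and 0.102, 0.217 and 0.182 CPM in control LECs, with a log2 fold change of 1.49 that was 3.18 at a pseudocount of 0.1 CPM and 0.74 at 3 CPM.

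Other targets were lower in Atgl ECKO LECs. Itga2, an integrin that binds collagen, had 33.0, 35.2 and 35.2 CPM in Atgl ECKO and 114, 113 and 106 CPM in control LECs, a log2 fold change of −1.66 (limma adjusted p = 6.63e-15). Mmp3, another matrix protease, had 4.38 ± 0.375 CPM in Atgl ECKO and 12.8 ± 1.29 CPM in control LECs. Lox, which links collagen fibres, had 0.0159, 0.0163 and 0.138 CPM in Atgl ECKO and 4.14, 3.34 and 3.95 CPM in control LECs and was barely detected in the Atgl ECKO libraries. Some targets chosen after their values were seen show the same mixture. Cd44, a hyaluronan receptor, had a log2 fold change of 0.73 and Plau, urokinase, of 0.69 (0.24 with the chromosome medians taken off), whereas Sele, E-selectin, had −1.33, Il6 −1.31 (−2.19 at a pseudocount of 0.1 CPM) and Timp1, a protease inhibitor, −1.08. Ptgs2, F3, Tnc, Vcam1 and Ccl2 in this list are among the inflammatory genes the study picked from these same libraries, so the direction of the list is not independent evidence. Mmp1a, Mmp9, Mmp13, Areg and Il11 were under the filter.

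**Figure D4:**
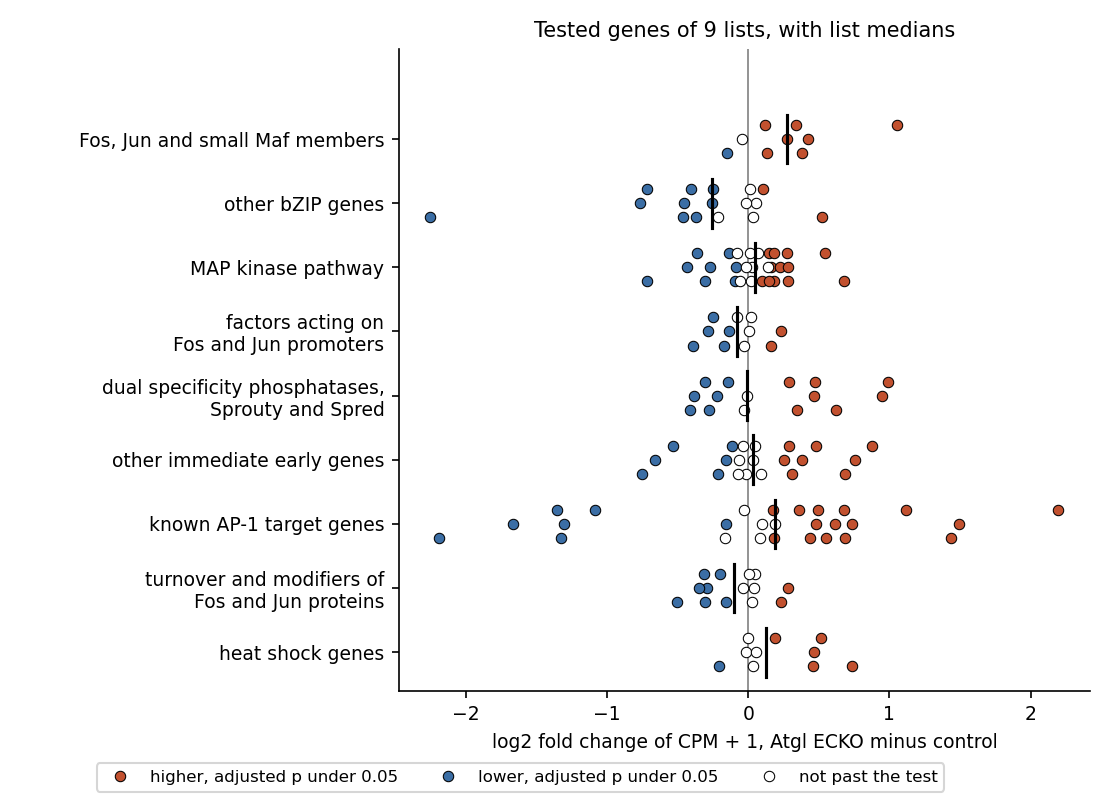
Log2 fold change of CPM + 1 (Atgl ECKO minus control, horizontal axis) of every tested gene of the 9 AP-1 members and 8 related lists, coloured by the limma test, with a bar at each list's median. The members have a median of 0.28 and the other bZIP genes of −0.25.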

How the data were processed

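RNA-Seq was done by the authors on LECs of both genotypes. The submitters' notes and the study's methods name STAR, hg19 and Partek for alignment and quantification, the sources used here give no versions, and the table holds mouse symbols although hg19 is a human build. The library kit is named as one for small RNA, and strand use in counting is not given. The authors deposited CPM per gene, with an offset of 0.0001 CPM in every value, and z-scores made from them, which were not used. Of 20430 lines, 21 held a date in place of a symbol and were left out. The columns of the 6 libraries add up to 81.8 to 82.3% of the full total that CPM sum to. Only 70.0 to 70.8% of low values were whole multiples of the step of 1 read within 0.02 of a read, so reads were not recovered and no count test was run. Depth was 55.6 to 69.0 reads per CPM.

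Genotypes were compared by limma 3.58.1 in R 4.3.3 (lmFit, eBayes with trend) on log2(CPM + 1), a pseudocount of 1 CPM, for 12837 genes that averaged 1 CPM or more over the libraries, with genotype as the only term (4 residual and 10.9 prior degrees of freedom). P-values were adjusted by Benjamini-Hochberg over these genes at a threshold of 0.05. Within-family ratios were tested by exact permutation (SciPy 1.17.1). The scripts were tested on simulated data. Lengths came from GENCODE M21 and promoter windows from RefSeq (GRCm38.p6), matched by symbol for 8 of 9 members. A chromosome was found by symbol for 99.2% of tested genes. The text names all 9 members, Pnpla2, at most 6 tested genes of each list with the largest absolute log2 fold change, list genes under the filter, and the 3 genes most like Fos, Fosl1 and Jun, and says so where a gene was added after its values were seen. Some genes that this rule names are not reported here. The members, lists and alternatives were chosen with earlier results of these data known. Alternatives were pseudocounts of 0.1 and 3 CPM, no filter or a filter at 5 CPM, median-ratio scaling, quantile normalization, no trend, no moderation, a replicate block, chromosome medians (over genes that averaged 5 CPM or more) taken off, the fold threshold, and leaving out each library.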

Additional observations from a re-analysis of the deposited data

How the results depend on the processing

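Over 84 genes and up to 16 alternatives, 1299 of 1326 gene values kept direction and side of the threshold, 18 lost the call, 5 gained it and 4 changed sign. For the 9 members these were 131 kept, 11 lost and 1 reversed. The count of members lower in Atgl ECKO LECs, Fos alone, was 0 with no filter, with median-ratio scaling, with limma without trend and with a linear model without moderation, and the cause was not tested. With the fold threshold of 1, 1 member was higher and 0 lower, and 286 genes were higher and 349 lower in all, since this threshold asks for larger changes. With the chromosome medians taken off the sign turned for Fosl2 (0.0482), Myh11 (−0.0751) and Lyve1 (0.0186), and for Lyve1 when 1 library was left out (−0.0577 to 0.00471, the highest without Atgl ECKO replicate 3), none of them past the test in either setting. The Fos to Fosb difference was −0.44 at a pseudocount of 3 CPM. Leaving out 1 library at a time gave 6 to 7 members higher and 0 to 1 lower, and 4029 to 4369 genes higher and 4261 to 4616 lower in all. The ratio differences then ranged over −0.64 to −0.53 (Fos to Fosb), −1.27 to −1.16 (Fos to Fosl1), −0.15 to −0.08 (Fos to Fosl2), −0.69 to −0.54 (Fosb to Fosl1), 0.41 to 0.54 (Fosb to Fosl2), 1.07 to 1.12 (Fosl1 to Fosl2), −0.17 to −0.10 (Jun to Junb), −0.30 to −0.21 (Jun to Jund), −0.13 to −0.05 (Junb to Jund) and −0.26 to −0.18 (Maff to Mafk).

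With the replicate number as a block, 7 members were higher and 1 lower, with 4367 genes higher and 4602 lower in all, and the block changed no call of a member. Same-numbered libraries did not deviate together (r = 0.09, 0.09 and −0.15 over genes), so the numbers were not taken as pairs. The block gave Fos an adjusted p of 0.0293 by limma. Fosb rests on the fewest reads of the members, about 220 to 344 a library. It drops out under the filter at 5 CPM because of its low CPM, a value already scaled for depth. The CPM hold no counts from which an interval per library could be made.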

Other observations

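Genes for the turnover and modification of Fos and Jun proteins were compared as a group in Atgl ECKO and control LECs. The 14 tested genes held 2 that were higher (14.3%), 7 lower (50%) and 5 not past the test, with a median log2 fold change of −0.10 against −0.01 over all genes, of which 34.2% were higher and 36.2% lower. With the chromosome medians taken off, 3 were higher and 6 lower, with a median of −0.03. Itch, a ubiquitin ligase of Jun and Junb, had 77.2, 78.1 and 75.4 CPM in Atgl ECKO and 108, 108 and 111 CPM in control LECs. All control libraries were higher, with a log2 fold change of −0.50 (limma adjusted p = 7.38e-10), or −0.27 with the chromosome medians taken off. Hdac3 (−0.35), Csnk2a1, a subunit of casein kinase 2 (−0.32), Usp28 (−0.31) and Cops5, known as JAB1 and a Jun coactivator (−0.29), were lower too. They were still lower with the chromosome medians taken off, at −0.22 for Hdac3, −0.09 for Csnk2a1, −0.20 for Usp28 and −0.22 for Cops5. Gsk3b, a kinase that marks Jun for turnover, was higher with 151 ± 0.644 CPM in Atgl ECKO and 124 ± 3.48 CPM in control LECs (SD, n = 3 each), a log2 fold change of 0.28 that became 0.02 and was no longer called with the chromosome medians taken off. Protein levels were not measured by these libraries.

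Heat shock genes, which respond to handling and protein damage, had 5 of 10 higher (50%, against 34.2% of all genes), 1 lower (10%, against 36.2%) and 4 not past the test, with a median log2 fold change of 0.12. Taking off the chromosome medians gave 8 higher and 1 lower. Hspa1a had 20.0, 19.1 and 17.8 CPM in Atgl ECKO and 10.02, 11.1 and 11.9 CPM in control LECs, a log2 fold change of 0.73 (limma adjusted p = 3.48e-08), and Hspa1b one of 0.47, but these copies are nearly identical and their split is uncertain. Hsp90aa1, an abundant chaperone gene, had 756 ± 13.3 CPM in Atgl ECKO and 529 ± 3.60 CPM in control LECs (0.52), and lies on chromosome 12 with Fos. Its log2 fold change was 0.15 with the chromosome medians taken off. Hspb1 (0.46) and Dnajb1 (0.19) were higher and Dnaja1 (−0.21) lower, with 0.08 for Dnajb1 and −0.11 for Dnaja1 once the chromosome medians were taken off.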
